A study of Mus musculus with 36 samples.

Results

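Fabp3, Fabp5, Bhmt and Bhmt2 are 2 pairs of related mouse genes, one for fatty acid binding proteins and the other for betaine-homocysteine methyltransferases. They are 4 of the 49671 genes counted by RNA sequencing in mouse embryonic stem cells (mESCs), and all 4 were among the 17702 genes with enough counts to be tested. Fabp3 and Bhmt were chosen by their response to PD03 in these libraries, and Fabp5 and Bhmt2 were added as their relatives. PD03 (PD0325901) inhibits MEK, the kinase that activates ERK. The PD03 responses of Fabp3 and Bhmt are therefore given as a description with no test, while the responses of Fabp5 and Bhmt2, and the effects of substrate, LIF and time on all 4 genes, were tested.

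The cells carried the label 129m wt in every group, so no transgene or deletion separated the groups, and they grew on fibronectin-coated soft or stiff StemBond hydrogels or on tissue culture plastic. StemBond hydrogels are polyacrylamide gels with a co-factor to which matrix protein is bound covalently. At 48 h, cells on soft and on stiff hydrogels were collected in serum with or without LIF and with or without PD03, which makes 4 media, and at 24 h in serum + LIF only. LIF is a cytokine that sustains self-renewal, and the cells on plastic were collected after 48 h in serum + LIF. The 36 libraries fell into 11 groups, with 6 libraries for soft hydrogels in serum + PD03 and 3 for each other group. Total counts per library ran from 10405696 to 26635239, and levels are given in CPM (counts of a gene scaled to equal library size). The labels do not say whether libraries of a group came from separate cultures, so p-values measure the spread between libraries, which may be technical. The summed level of 7 markers of embryonic stem cells lay between 3388 and 4001 CPM with PD03 and between 1924 and 2652 CPM without it. This sum thus moved with PD03 as well, though not every marker in it did. The 10 genes of a list of ERK output were all lower with PD03 in each of the 4 comparisons, as were 19.9% of all genes tested. Spry4, an ERK-induced feedback inhibitor, lay between 0.197 and 1.36 CPM with PD03 and between 106 and 144 CPM without it.

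Betaine-homocysteine methyltransferase (BHMT) moves a methyl group from betaine to homocysteine, which gives methionine and dimethylglycine. It is best known as an abundant enzyme of liver and kidney, and its activity has also been described in the mouse blastocyst. BHMT2 methylates homocysteine from S-methylmethionine instead. Fatty acid binding proteins carry fatty acids and related lipids through the cytosol: FABP3 is the form of heart and muscle, and FABP5 the form first described in epidermis.

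Bhmt (ENSMUSG00000074768) lies on chromosome 13 at 93616675 to 93637961 of GRCm38, minus strand. Bhmt2 (ENSMUSG00000042118) lies 17758 bp away on the same strand, at 93655720 to 93674302. The next gene, Dmgdh, runs from 93674433 to 93752833 on the plus strand, and only 130 bp separate the annotated starts of Bhmt2 and Dmgdh. Dmgdh encodes the mitochondrial enzyme that oxidises dimethylglycine, a product of BHMT. Fabp3 (ENSMUSG00000028773) lies on chromosome 4 at 130308595 to 130315463, plus strand, and Fabp5 (ENSMUSG00000027533) on chromosome 3 at 10012548 to 10016607, plus strand. The promoters of Bhmt, Bhmt2 and Fabp3 were read from RefSeq sequence of GRCm38.p6, a table that held 3 of the 4 genes. Stretches in front of the annotated starts are shown so that the promoters of genes with large and small responses can be compared, and capitals mark the nuclear receptor letters AGGTCA or, in the extended form bound by orphan receptors, TCAAGGTCA.
Bhmt, chr13:93637962-93638008, minus strand: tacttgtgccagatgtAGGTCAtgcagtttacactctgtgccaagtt
Bhmt, site at chr13:93637815-93637843, minus strand: tgaccccagaTCAAGGTCAgaggcctgct
Bhmt2 and Dmgdh, chr13:93674303-93674432, read on the minus strand: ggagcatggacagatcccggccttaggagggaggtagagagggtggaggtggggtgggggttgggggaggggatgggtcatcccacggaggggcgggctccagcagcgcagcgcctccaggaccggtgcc
Fabp3, chr4:130308488-130308594, plus strand: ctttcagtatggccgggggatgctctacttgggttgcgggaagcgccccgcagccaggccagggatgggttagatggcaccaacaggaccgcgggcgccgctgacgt

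The stretch in front of Bhmt held no CpG in 47 bases, while that between Bhmt2 and Dmgdh held 6 in 130 bases and that in front of Fabp3 held 9 in 107. Over the 250 bases before each RefSeq start, Bhmt had 5 CpG and 48% GC, Bhmt2 had 20 CpG and 74% GC, and Fabp3 had 17 CpG and 64.8% GC. The median over all 32851 such windows was 6 CpG. The window of Bhmt held AGGTCA 3 times and TCAAGGTCA 1 time on its own strand, the latter 75 to 67 bases before the RefSeq start, inside the first exon of the longer GENCODE transcript. One of the 3 matches of AGGTCA lies within TCAAGGTCA. With both strands searched, AGGTCA stood in 14% of all windows and TCAAGGTCA in 0.387%. Neither was in the windows of Bhmt2, Dmgdh or Fabp3. A direct repeat of AGGTCA with 1 base between, as PPAR and RXR dimers bind, stood in 0.0335% of windows and in none of these 4. TTCCNGGAA, CCGGAAGT and TGACTCA, the letters read by STAT, ETS and AP-1 factors, had no match in these 4 windows and stood in 0.913%, 2.88% and 4.46% of all windows. The motifs were chosen with the sequences in view, and binding was not measured.

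Bhmt was almost silent without PD03 and well expressed with it. In serum + LIF at 48 h the stiff libraries held 1.21, 1.18 and 0.972 CPM and the soft libraries 1.07, 1.52 and 0.785 CPM. With PD03 added, the stiff libraries held 74.9, 69.4 and 72.0 CPM and the soft libraries 78.7, 71.3 and 79.0 CPM. On both substrates each library with PD03 was above each library without it, and the soft and stiff libraries overlapped. In serum alone the stiff libraries held 0.523, 0.0693 and 0.880 CPM and the soft libraries 0.740, 1.06 and 0.918 CPM. In serum + PD03 the stiff libraries held 62.0, 59.3 and 58.1 CPM, and the 6 soft libraries ran from 56.4 through a median of 64.1 to 67.8 CPM. Here too soft and stiff libraries overlapped, and the gap between libraries with and without PD03 was far wider than the spread of either. The log2 change with PD03 was 6.07 ± 0.16 (SE of the edgeR fit) on soft and 6.02 ± 0.16 on stiff hydrogels in the presence of LIF, and 6.11 ± 0.15 and 6.88 ± 0.18 without LIF. The larger value without LIF on stiff hydrogels rests on a reference group of 0.491 ± 0.406 CPM (SD, n = 3), in which 1 library was nearly empty.

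Over all 15 libraries with PD03, Bhmt ran from 56.4 to 79.0 CPM (19290 counts), and over the 21 libraries without it from 0.0693 to 1.52 CPM (285 counts). Among the groups with PD03, the libraries with LIF lay above those without LIF, with means of 76.3 ± 4.35 (soft) and 72.1 ± 2.75 CPM (stiff) against 63.0 ± 4.41 (soft, n = 6) and 59.8 ± 2.0 CPM (stiff). Neighbouring groups without PD03 all overlapped in the order of levels. In these bulk samples more cells with Bhmt RNA and more Bhmt RNA per cell cannot be told apart.

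Bhmt2, which was not chosen for its response, was also near the limit of detection without PD03. In serum + LIF its stiff libraries held 0.356, 0.209 and 0.358 CPM and its soft libraries 0.0627, 0.508 and 0.262 CPM. With PD03 added they held 7.70, 6.83 and 8.57 CPM on stiff and 7.82, 8.02 and 8.01 CPM on soft hydrogels. The libraries with PD03 were thus many times above those without it, on either substrate. In serum alone Bhmt2 lay at 0.336, 0.555 and 0.271 CPM on stiff and 0.0987, 0.240 and 0.306 CPM on soft hydrogels. In serum + PD03 it lay at 10.3, 6.46 and 6.62 CPM on stiff hydrogels, and between 6.59 and 7.98 CPM with a median of 7.28 CPM on soft hydrogels. All 15 libraries with PD03 (2172 counts) were above all 21 without it (107 counts).

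Both tested members, Bhmt2 and Fabp5, rose with PD03 in all 4 comparisons of media with and without it. Such a call was common, since 54.4% of the genes tested passed the threshold (edgeR adjusted p under 0.05) with LIF on soft, 56.2% with LIF on stiff, 57.5% without LIF on soft and 55.8% without LIF on stiff hydrogels. The size of the change was 4.81 ± 0.31 (log2, SE) for Bhmt2 with LIF on soft (edgeR adjusted p = 1.18e-18) and 4.6 ± 0.31 on stiff hydrogels (edgeR adjusted p = 2.06e-18). Without LIF it was 5.04 ± 0.29 on soft (edgeR adjusted p = 1.2e-20) and 4.34 ± 0.29 on stiff hydrogels (edgeR adjusted p = 2.28e-18). With so few counts without PD03, these sizes rest on low denominators, and the value with LIF on soft hydrogels was 5.58 without soft library 2 in serum + LIF. Bhmt2 held at most 0.578 CPM in any library without PD03. It therefore had enough counts to be tested only through its libraries with PD03, and its p-values are not independent of its rise. With no filter on low counts its changes were 4.33 to 5.03. Per kilobase of exon, Bhmt2 stood well below Bhmt. In the groups with PD03, Bhmt had means of 10.4 to 13.3 CPM per kb over an exon length of 5758 bases, and Bhmt2 had 2.93 to 3.22 CPM per kb over 2467 bases. The ratio of Bhmt to Bhmt2 on this scale was 3.42 ± 0.738 to 4.12 ± 0.270 (SD) in group means, and neighbouring groups overlapped.

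**Figure D1:**
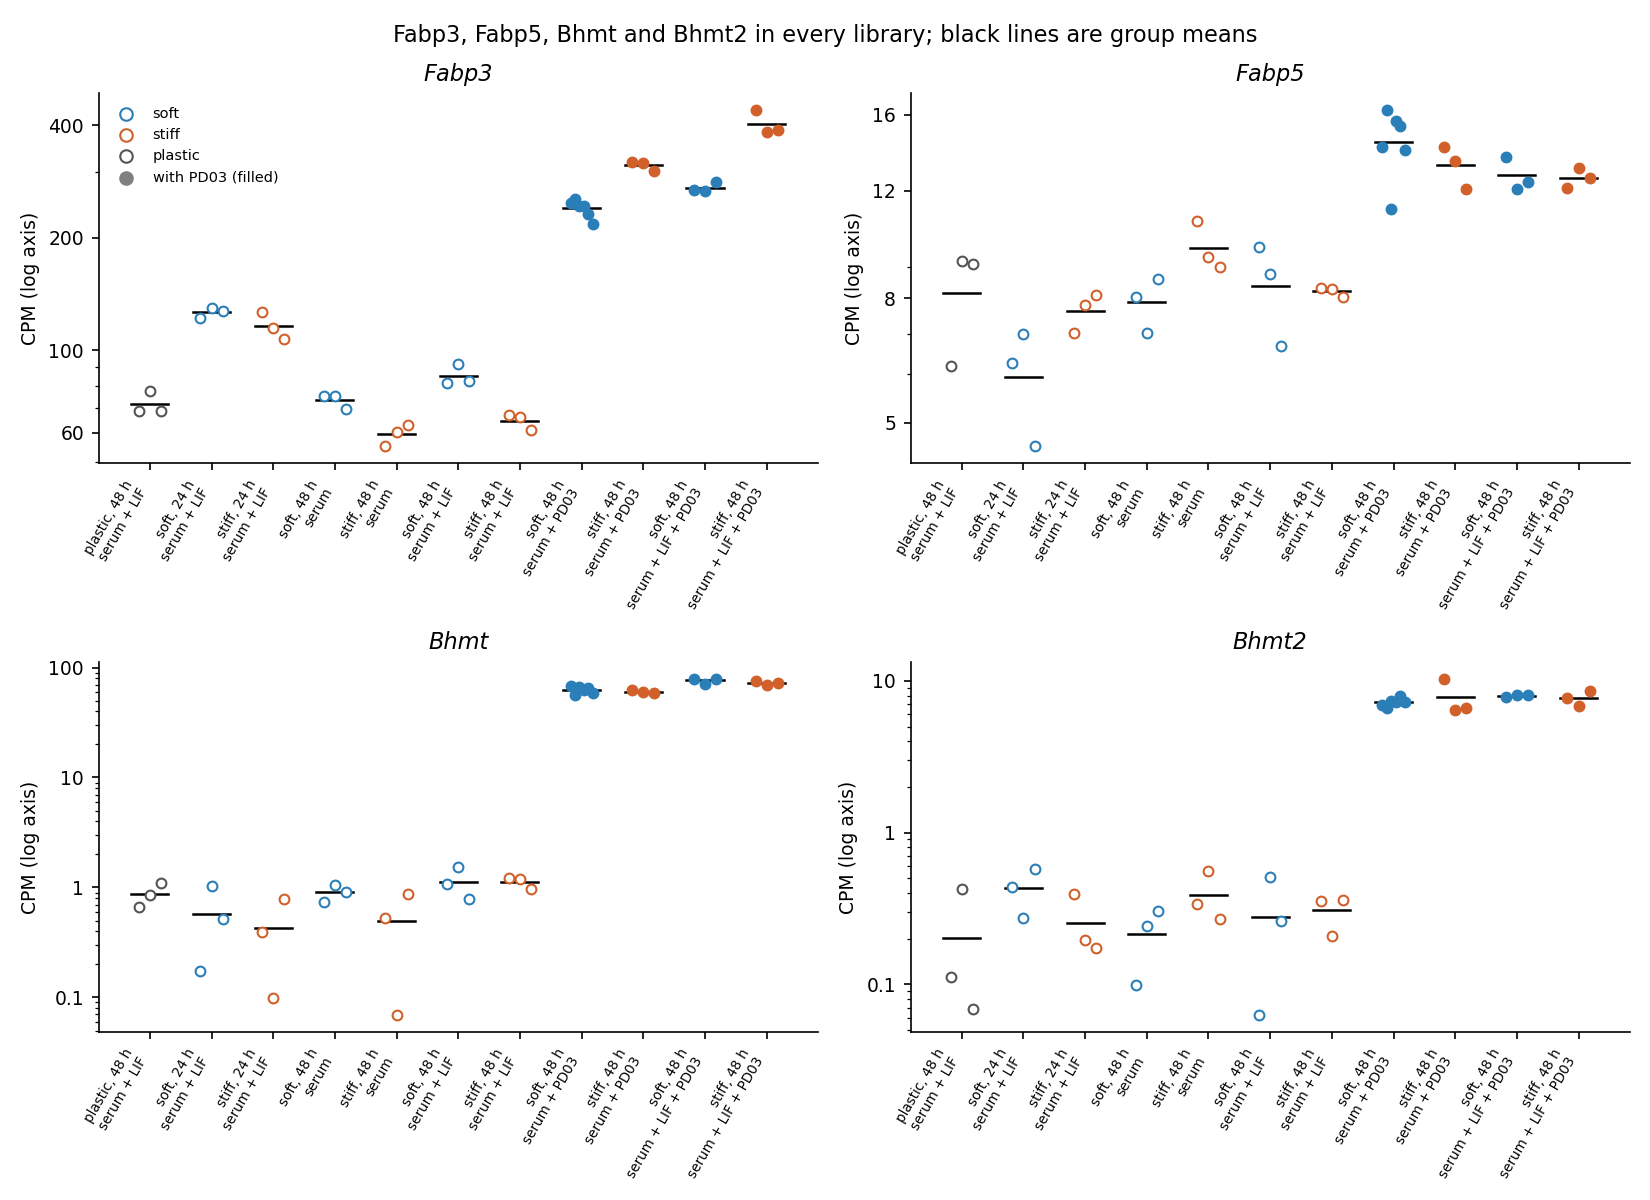
CPM of Fabp3, Fabp5, Bhmt and Bhmt2 (log axes) in each of the 36 libraries, by group along the horizontal axis, with soft in blue, stiff in orange and plastic in grey. Filled points have PD03 and black lines are group means. For each gene all 15 filled points lie above all 21 open ones, and Fabp3 and Bhmt were chosen for this response. Of all genes tested, 21.5% were higher with PD03 in all 4 comparisons, and the share whose libraries separate fully was not counted. Only Fabp3 shows soft and stiff filled points of the same medium apart.

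Fabp3 was abundant without PD03 and rose further with it. In serum + LIF at 48 h it lay at 67.0, 66.0 and 61.2 CPM in the stiff libraries and at 81.7, 91.9 and 82.5 CPM in the soft libraries. With PD03 added it lay at 439, 385 and 390 CPM on stiff and 268, 267 and 283 CPM on soft hydrogels. The soft libraries were the higher ones without PD03 and the lower ones with it. In serum alone the stiff libraries held 55.2, 60.4 and 63.2 CPM and the soft libraries 75.3, 75.5 and 69.4 CPM. In serum + PD03 the stiff libraries held 319, 318 and 302 CPM, and the 6 soft libraries ran from 217 through a median of 243 to 253 CPM. The same change of order was thus present without LIF. The log2 change with PD03 was 1.67 ± 0.06 (SE) on soft and 2.65 ± 0.06 on stiff hydrogels with LIF, and 1.71 ± 0.06 and 2.40 ± 0.06 without LIF. Ordered by mean, the groups with PD03 ran from stiff with LIF (405 ± 30.1 CPM, SD) through stiff without LIF (313 ± 9.37) and soft with LIF (272 ± 8.94) to soft without LIF (240 ± 13.1, n = 6), and no neighbours in this order overlapped.

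Fabp5 changed far less. In serum + LIF it lay at 8.32, 8.28 and 8.03 CPM on stiff and 9.72, 8.76 and 6.67 CPM on soft hydrogels, and with PD03 added at 12.1, 13.1 and 12.6 CPM on stiff and 13.6, 12.1 and 12.4 CPM on soft hydrogels. In serum alone it lay at 10.7, 9.36 and 9.0 CPM on stiff and 8.04, 7.01 and 8.62 CPM on soft hydrogels. In serum + PD03 it lay at 14.2, 13.4 and 12.1 CPM on stiff hydrogels, and between 11.2 and 16.3 CPM with a median of 14.8 CPM on soft hydrogels. All libraries with PD03 were above all without it (11.2 to 16.3 against 4.57 to 10.7 CPM), by a small margin. Fabp5 rose by 0.60 ± 0.14 (log2, SE) with LIF on soft (edgeR adjusted p = 0.000242) and by 0.62 ± 0.14 on stiff hydrogels (edgeR adjusted p = 0.000143). Without LIF it rose by 0.86 ± 0.12 on soft (edgeR adjusted p = 1.88e-08) and by 0.44 ± 0.13 on stiff hydrogels (edgeR adjusted p = 0.00497). Per kilobase of exon (823 bases for Fabp3 and 3567 for Fabp5), Fabp3 stood above Fabp5 in every library. The ratio on this scale, averaged over the libraries of a group, was lowest in serum on stiff hydrogels, at 26.9 ± 4.12 (SD), and highest in serum + LIF + PD03 on stiff hydrogels, at 140 ± 15.5.

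Reads of these genes can also match near-identical copies elsewhere in the genome. Of the 774 stretches of 50 bases in Fabp3 transcripts, 37.3% were also found in transcripts of another gene, mostly the pseudogene Fabp3-ps1. For Bhmt the share was 26.1% of 5755 stretches, mostly the copies Gm5096 and Bhmt-ps1, for Bhmt2 6.32% of 2405, and for Fabp5 5.48% of 3611, mostly Gm6166. Only 10 stretches were common to Bhmt and Bhmt2. The copies drew few reads, with 1213 counts for Fabp3-ps1 and 315 for both copies of Bhmt over all libraries. The 5 copies of Fabp5 drew 1979 counts. With the copies' counts added, the log2 change of Fabp5 with PD03 was 0.56 with LIF on soft, 0.65 with LIF on stiff, 0.91 without LIF on soft and 0.32 without LIF on stiff hydrogels (edgeR adjusted p of 0.000156, 1.37e-05, 4.13e-10 and 0.024). Whether reads with several matches were counted is not given in the sources used here. Fabp3 also overlaps Zcchc17 by 81 bp and Gm10570 by 80 bp on the other strand, and the strand setting of the counting is not given either. Gm10570 had 34 counts in all, and Zcchc17 did not pass the threshold with PD03 in any of the 4 comparisons (log2 -0.12, -0.09, -0.09 and -0.05, with LIF on soft, with LIF on stiff, without LIF on soft and without LIF on stiff).

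The neighbours of Bhmt were compared to see whether its response was shared along the chromosome. Dmgdh rose with PD03 on both substrates and in both media, from 1.14 ± 0.773 to 27.9 ± 2.46 CPM (SD) with LIF on soft and from 1.15 ± 0.179 to 25.7 ± 1.21 CPM with LIF on stiff hydrogels. Without LIF it rose from 1.43 ± 0.438 to 24.0 ± 1.32 CPM (n = 6) on soft and from 1.19 ± 0.156 to 24.4 ± 2.84 CPM on stiff hydrogels. The log2 changes of Dmgdh were 4.6 ± 0.19, 4.45 ± 0.19, 4.06 ± 0.16 and 4.33 ± 0.18 (with LIF on soft and on stiff, then without LIF on soft and on stiff hydrogels; edgeR adjusted p at most 3.94e-26). Beyond Dmgdh, Arsb, a lysosomal sulfatase, rose by 2.28, 2.38, 1.48 and 0.76 in the same order, and Lhfpl2 by 1.05, 1.25, 1.27 and 1.47. On the other side of Bhmt, Jmy rose by 0.15 to 0.23, while Homer1 and Tent2 did not pass the threshold in any of these comparisons, with log2 values from -0.08 to -0.03 and from 0.06 to 0.13. The largest changes among these genes were thus at Bhmt, Bhmt2 and Dmgdh, which lie next to each other, with smaller rises at Arsb and Lhfpl2. The share of all genes with changes of this size was not counted. Around Fabp3, Snrnp40 fell by 0.14 to 0.33, Nkain1 rose by 0.46 without LIF on soft hydrogels and had 0.16 to 0.30 in the other 3 comparisons, where it did not pass, and Serinc2 passed in none (0.07 to 0.49). Around Fabp5, Zbtb10, a zinc finger gene, rose by 2.47 to 2.81, Pag1 by 0.92 to 1.40 and Zfp704 by 0.63 to 0.90. Gm9833 rose on soft hydrogels, by 0.37 with LIF and 0.21 without LIF, and had 0.16 and -0.03 on stiff hydrogels, where it did not pass.

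**Figure D2:**
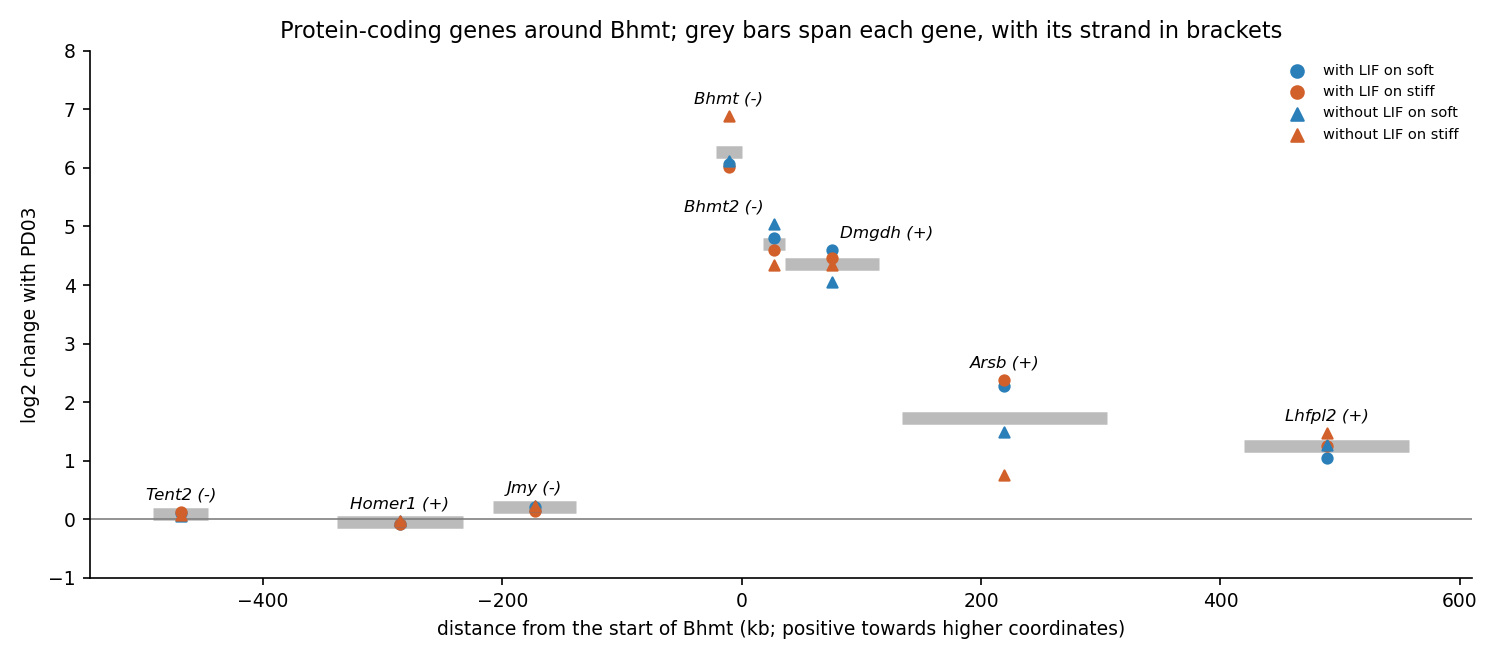
The log2 change with PD03 of Bhmt and of the 3 nearest protein-coding genes on each side of Bhmt and Bhmt2, against the distance from the start of Bhmt in kb. Grey bars span each gene at its mean change over 4 comparisons, shown as points (blue soft, orange stiff, circles with LIF, triangles without). Bhmt, Bhmt2 and Dmgdh have mean changes of 6.27, 4.70 and 4.36, Arsb and Lhfpl2 of 1.73 and 1.26, and Tent2, Homer1 and Jmy lie near 0.

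The genes that make betaine and use the products of BHMT were followed next. Of the 26 other genes of the betaine and methionine cycle, 23 were tested. PD03 raised 13 of them and lowered 4 in all 4 comparisons, where 21.5% of all genes tested were higher and 19.9% lower in all 4. The median of their mean log2 changes was 0.39, against -0.0040 over all genes. Chdh, the choline dehydrogenase that starts betaine synthesis, rose by 3.06 to 3.46, from between 0.208 and 1.65 CPM without PD03 to between 3.39 and 7.76 CPM with it. Slc44a1, a choline transporter, rose by 1.0 to 1.32, to between 202 and 215 CPM. Slc6a12, the betaine transporter, rose by 1.84 to 5.34 but reached no more than 1.32 CPM, and it is named after its values were seen. It held at most 0.578 CPM in any library without PD03. As for Bhmt2, its place among the 13 raised genes is therefore not independent of its rise. Aldh7a1, which oxidises betaine aldehyde to betaine, went the other way and fell by 0.22 to 0.30 in 3 comparisons, with -0.14 with LIF on stiff hydrogels (edgeR adjusted p = 0.0634).

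Among the genes that handle homocysteine and methionine, Cth, which makes cysteine from cystathionine, rose by 1.53 to 1.57, from between 38.9 and 56.9 to between 109 and 129 CPM. Mtr, the folate-dependent methionine synthase, rose by 0.58 to 0.76. Mat2a, which turns methionine into S-adenosylmethionine, fell by 0.59 to 0.67, and Ahcy, which releases homocysteine from S-adenosylhomocysteine, fell by 0.32 to 0.65. Downstream of dimethylglycine, Sardh was not tested, with 70 counts in all libraries. Pipox, an oxidase of pipecolate and sarcosine, fell by 0.61 to 1.0. Pemt, which makes phosphatidylcholine, rose by 0.51 to 0.97. The list thus held changes in both directions, with the largest at Dmgdh, Chdh and Slc6a12.

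Relatives of the Fabp pair were mostly absent. Of 13 other genes for FABPs and related lipid binding proteins, 4 were tested and 9 had too few counts. Fabp4, the adipocyte form, had 62 counts and Fabp7, the brain form, 44 counts over all libraries, and Fabp1, the liver form, was at 0. Crabp2 and Rbp7 fell in all 4 comparisons, as did 19.9% of all genes tested. Rbp7 held at most 0.290 CPM in any library with PD03, so its place among the tested genes is not independent of its fall. Crabp2, a retinoic acid binding protein, fell by 1.70 to 1.86, from between 5.10 and 10.2 to between 1.63 and 3.14 CPM. Crabp1 fell by 0.70 to 0.90 in 3 comparisons and was at -0.12 without LIF on stiff hydrogels (edgeR adjusted p = 0.517).

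Fatty acid genes moved both ways. Of 36 genes of uptake, activation and oxidation, 32 were tested, and 14 were higher and 3 lower with PD03 in all 4 comparisons, beside 21.5% and 19.9% of all genes, with a median of the mean log2 changes of 0.29. Several genes of mitochondrial oxidation rose, while others fell or did not pass. Acaa2, the last enzyme of a round of beta-oxidation, rose by 2.20 to 2.54, from between 14.1 and 22.3 to between 80.9 and 104 CPM. Slc25a20, the carnitine-acylcarnitine carrier, rose by 2.12 to 2.39, and Acadm, the medium-chain dehydrogenase, by 1.23 to 1.37. Cpt1a, which attaches fatty acids to carnitine, rose by 1.15 to 1.38 and is named after its values were seen. So are Acadl and Hadhb, which fell in 3 comparisons each, by 0.46 to 0.58 and by 0.20 to 0.25. Echs1 and Eci1 passed in none. Slc27a2, which takes up and activates fatty acids, fell by 3.17 to 3.37. Acsl5, an acyl-CoA synthetase that activates them too, fell by 2.47 to 2.76.

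Of 16 PPAR and RXR genes and their targets, 12 were tested, with 5 higher and 4 lower in all 4 comparisons, beside 21.5% and 19.9% of all genes. PPARs are receptors activated by fatty acids, and RXRs are their partners. Rxra rose by 1.16 to 1.37, Plin2, which coats lipid droplets, by 1.54 to 1.94, and Lpl, a lipase, by 1.46 to 1.85. Ppargc1b fell by 0.52 to 0.85 and the thioesterase Acot1 by 0.65 to 1.08. Pparg, Rxrg, Angptl4 and Pdk4 are named after their values were seen. Pparg rose by 3.44 to 6.55 but did not exceed 6.16 CPM. It held at most 0.523 CPM in any library without PD03, so its place among the 5 higher genes is not independent of its rise. Rxrg fell by 5.56 to 9.02, with a mean of 1.17 CPM over all libraries. Angptl4 fell by 0.33 to 0.78, and Pdk4 passed in none of the 4 comparisons.

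**Figure D3:**
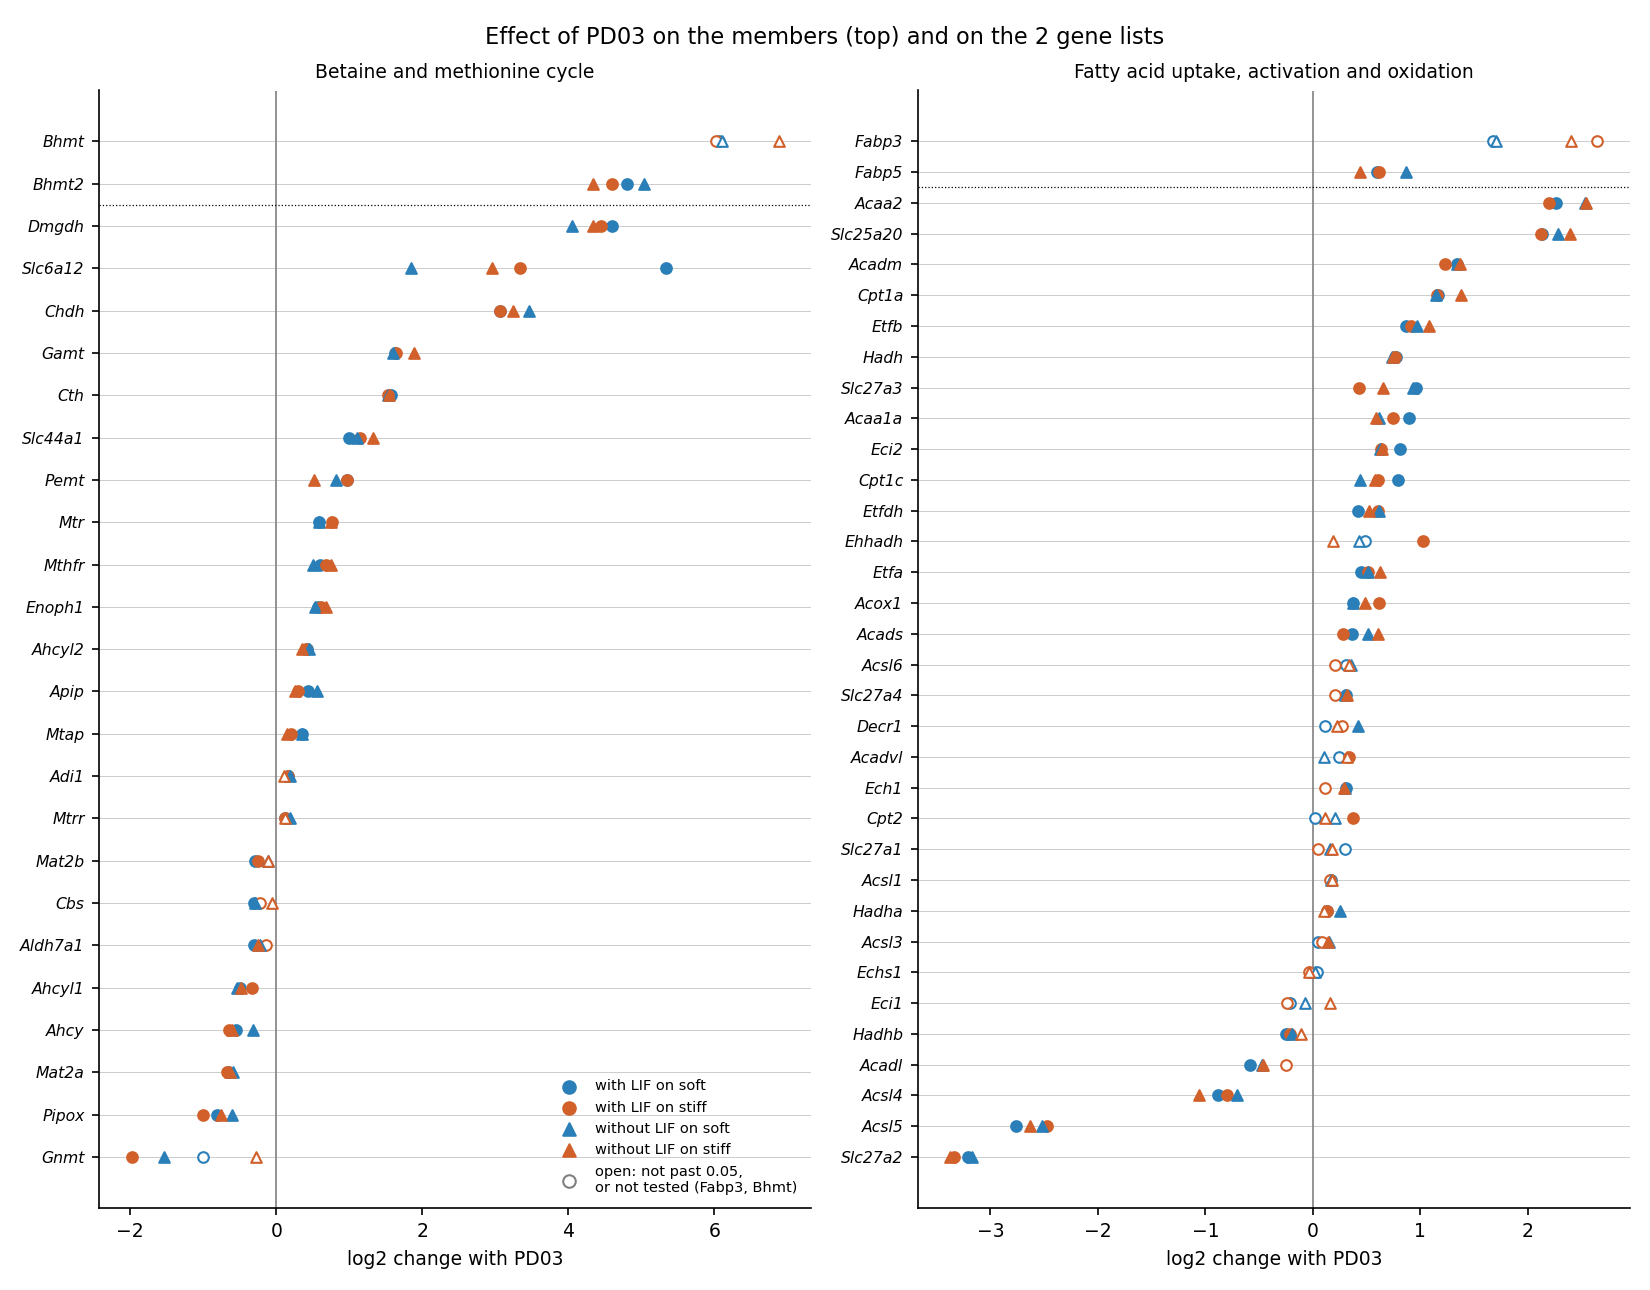
The log2 change with PD03 of the tested genes of the betaine and methionine cycle (left) and of fatty acid uptake, activation and oxidation (right), ordered by mean change, with Bhmt, Bhmt2, Fabp3 and Fabp5 above the dotted lines. Blue is soft and orange stiff, circles are with LIF and triangles without, and filled points had an edgeR adjusted p under 0.05. Fabp3 and Bhmt are open because they were not tested, and Dmgdh, Slc6a12 and Chdh lead the left panel.

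Some markers of the stem cells and of other cell types also moved with PD03, and single genes carried much of each sum. The markers named here were picked after their values were seen. Of the 7 stem cell markers, 4 were higher and 0 lower in all 4 comparisons, where 21.5% of all genes tested were higher and 19.9% lower. The log2 changes were 1.84 to 2.15 for Nanog and 1.66 to 2.10 for Tfcp2l1. Pou5f1, Sox2 and Zfp42 changed little, with -0.03 to 0.17, 0.02 to 0.21 and -0.09 to 0.23. The summed level of 6 trophoblast markers lay between 129 and 225 CPM with PD03 and between 27.3 and 76.8 CPM without it, and that of 6 primitive endoderm markers between 82.2 and 140 and between 45.0 and 68.5 CPM. Of the 6 trophoblast markers 4 were higher and 1 lower in all 4 comparisons. Of the 6 primitive endoderm markers 1 was higher and 1 lower, near the share over all genes, and the higher one, Dab2, carried the rise of the sum (65.7 to 118 against 19.5 to 29.6 CPM). Sox7 fell by 2.18 to 2.54. The fibroblast sums overlapped (27 to 88.5 against 22.1 to 78.8 CPM), and the members went both ways, since Col1a1, which made up most of the sum with PD03, was higher in all 4 comparisons and Thy1 and Dcn were lower in all 4. The sums of the 6 markers of 2-cell-like cells were lower (0.861 to 3.03 against 3.84 to 12.5 CPM). Markers of hepatocytes and adipocytes, where Bhmt and Fabp4 are abundant, summed to between 0.633 and 1.86 CPM with PD03 and between 0.138 and 0.823 CPM without it. Of these 6 markers only Cidec was tested, which rose by 2.78 to 4.55 at a mean of 0.421 CPM over all libraries. The others had too few counts. No marker of these lists was at 0 in all libraries. The part of the markers of these lists in the responses of the 4 genes was not tested.

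Soft and stiff hydrogels were compared within each medium. This contrast did not choose the genes, but at 48 h it uses libraries from which Fabp3 and Bhmt were chosen. None of the 4 genes passed the threshold at 24 h in serum + LIF, where 3.55% of all genes did, by edgeR or DESeq2, and 2 of the 4 had an unadjusted p under 0.05. Fabp3 lay at 122, 129 and 127 CPM in the soft and at 126, 114 and 107 CPM in the stiff libraries, which overlapped (log2 0.13 ± 0.06, edgeR adjusted p = 0.338). Fabp5 lay at 6.27, 7.0 and 4.57 CPM in the soft and at 7.01, 7.79 and 8.09 CPM in the stiff libraries, so that the stiff libraries were the higher ones (-0.38, edgeR adjusted p = 0.213). Both methyltransferase genes were near 0 in all libraries at 24 h. Bhmt lay at 0.174, 1.03 and 0.520 CPM on soft and at 0.395, 0.0980 and 0.779 CPM on stiff hydrogels (0.44, edgeR adjusted p = 0.752), and Bhmt2 at 0.436, 0.274 and 0.578 CPM and at 0.395, 0.196 and 0.173 CPM (0.78, edgeR adjusted p = 0.536). At 48 h, 1 of the 4 genes, Fabp3, passed in each of the 4 media, where 0.78% of all genes passed in serum + LIF and 4.85% passed in serum, and, with PD03, 5.55% passed without LIF and 7.61% with LIF. The direction of the difference was the opposite with PD03, which is a description because the turn itself was not tested.

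Without PD03, Fabp3 was higher on soft hydrogels, by 0.40 ± 0.07 (log2, SE) in serum + LIF (edgeR adjusted p = 0.00038) and by 0.31 ± 0.07 in serum (edgeR adjusted p = 0.00147). With PD03 it was lower on soft hydrogels, by -0.39 ± 0.05 in serum + PD03 (edgeR adjusted p = 1.89e-07) and by -0.57 ± 0.06 in serum + LIF + PD03 (edgeR adjusted p = 1.95e-10). Soft and stiff libraries did not overlap in any of these 4 media. The difference between the substrates' PD03 effects was -0.97 ± 0.09 with LIF and -0.69 ± 0.08 without LIF, given without a test because Fabp3 was chosen for its PD03 response. A pool here means libraries that share the code at the front of their description in the labels. At 48 h the stiff libraries came almost all from 1 pool and most of the soft ones from another, whereas the 24 h libraries shared a pool. With pool as a term, the differences with PD03 passed the threshold under all 45 possible assignments of columns to pools (-0.48 to -0.32 without LIF and -0.71 to -0.47 with LIF). Those without PD03 passed under 12 of 45 in serum + LIF (0.22 to 0.53) and under 18 of 45 in serum (0.17 to 0.41), and the value in serum lost its call without stiff library 1 (0.24, edgeR adjusted p = 0.0541).

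Sums of markers of other cell types also differed between substrates. In serum + LIF + PD03 the summed trophoblast markers lay between 207 and 225 CPM on stiff and between 148 and 151 CPM on soft hydrogels, the primitive endoderm markers between 130 and 140 and between 100.3 and 112 CPM, and the fibroblast markers between 83.2 and 88.5 and between 27 and 40.3 CPM. Dab2 made up most of the primitive endoderm sum and Col1a1 most of the fibroblast sum. In serum + PD03 the trophoblast sums were 179 to 189 CPM on stiff and 129 to 141 CPM on soft hydrogels. In serum, where Fabp3 was higher on soft hydrogels, the trophoblast sums were 42.9 to 45.6 CPM on stiff and 30.2 to 35 CPM on soft hydrogels. The fibroblast sums in serum were 46.7 to 53.1 CPM on stiff and 22.1 to 29.2 CPM on soft hydrogels. The stem cell sums in serum were 1924 to 2043 CPM on stiff and 2310 to 2391 CPM on soft hydrogels. In serum + LIF + PD03 they were 3388 to 3488 CPM on stiff and 3764 to 3956 CPM on soft hydrogels. The trophoblast sums in serum + LIF overlapped (36.8 to 46.6 CPM on stiff and 27.3 to 37.7 CPM on soft hydrogels). The primitive endoderm sums in serum overlapped (47.3 to 57.8 CPM on stiff and 45.6 to 56.3 CPM on soft hydrogels). The part of these markers in the differences of Fabp3 was not tested.

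The other 3 genes did not pass the threshold between substrates in any medium. For Bhmt the difference was 0.08 ± 0.08 (log2, SE) in serum + PD03 (edgeR adjusted p = 0.690) and 0.08 ± 0.09 in serum + LIF + PD03 (edgeR adjusted p = 0.693). For Bhmt2 it was -0.09 ± 0.16 (edgeR adjusted p = 0.841) and 0.04 ± 0.18 (edgeR adjusted p = 0.937), and for Fabp5 0.12 ± 0.11 (edgeR adjusted p = 0.666) and 0.02 ± 0.13 (edgeR adjusted p = 0.971). Without PD03 the counts of Bhmt and Bhmt2 were too low for a narrow estimate, as in serum, where Bhmt had 0.85 ± 0.40 (edgeR adjusted p = 0.271) and Bhmt2 -0.79 ± 0.53 (edgeR adjusted p = 0.506). In serum the stiff libraries of Fabp5 all lay above the soft ones, at -0.31 ± 0.14 (edgeR adjusted p = 0.253), and with the counts of its copies added the value was -0.46 (edgeR adjusted p = 0.0194).

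**Figure D4:**
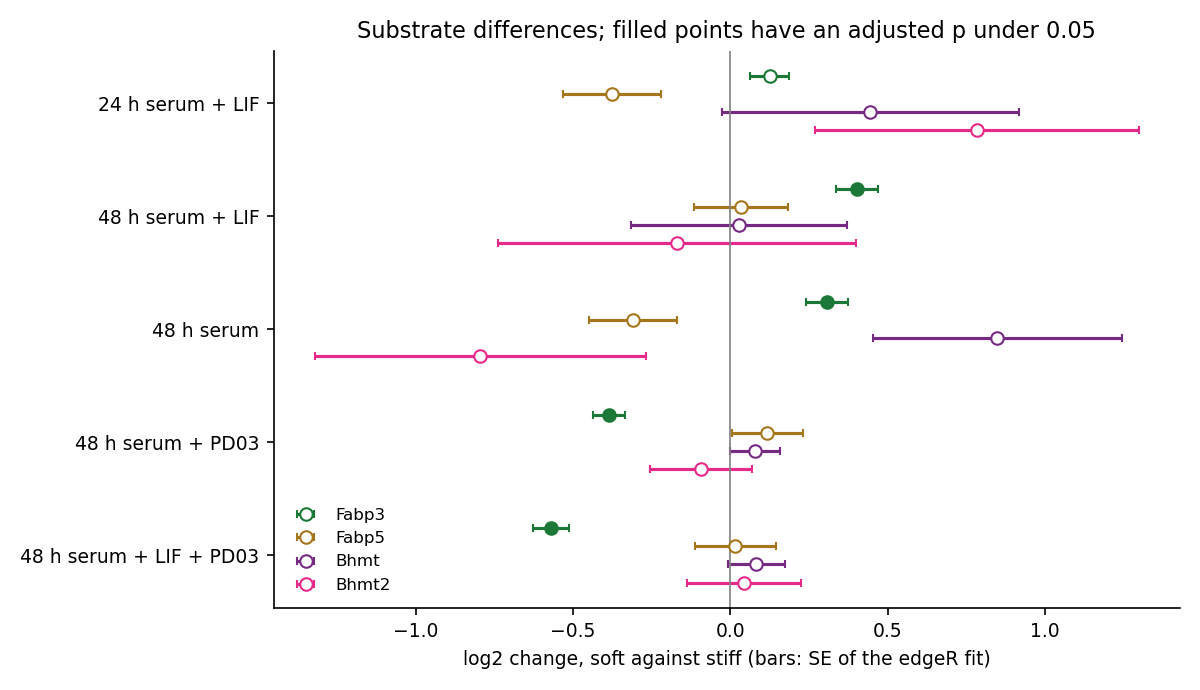
The log2 change of soft against stiff hydrogels for each of the 4 genes in 5 conditions, with bars for the SE of the edgeR fit and filled points for an adjusted p under 0.05. Fabp3 is filled at 48 h in all media, to the right of 0 without PD03 (0.40 and 0.31) and to the left with it (-0.39 and -0.57), and no other gene has a filled point.

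The interaction of PD03 with substrate or LIF was tested for Fabp5 and Bhmt2, and neither passed. In the 4 interaction tests the shares of all genes past the threshold were 1.07% (substrate, with LIF), 0.797% (substrate, without LIF), 0.0226% (LIF, on soft) and 1.09% (LIF, on stiff). DESeq2 called neither gene where it gave an adjusted p, and the substrate interaction of Fabp5 without LIF, at 0.43 ± 0.18 (edgeR adjusted p = 0.318), was the only one with an unadjusted p under 0.05. For Bhmt, given without a test, the substrate interaction was 0.05 with LIF and -0.77 without LIF, and the LIF interaction -0.04 on soft and -0.86 on stiff hydrogels. The values near -0.8 share the serum group on stiff hydrogels, in which 1 library held 0.0693 CPM. For Fabp3 the LIF interaction was -0.03 on soft and 0.25 on stiff hydrogels.

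LIF gave few calls among the 4 genes. Without PD03, 0 of the 4 genes passed on soft, where 0.0169% of all genes did, and 0 of 4 on stiff hydrogels, where 1.41% did, with 1 of the 4 at an unadjusted p under 0.05 in each by edgeR. DESeq2 called Bhmt on stiff hydrogels (log2 1.14, adjusted p = 0.0385, against 1.13 ± 0.40 and an adjusted p of 0.171 by edgeR) and neither of the 2 genes for which it gave an adjusted p on soft hydrogels. Under PD03, LIF raised Fabp3 on stiff hydrogels by 0.37 ± 0.06 (edgeR adjusted p = 0.000178), 1 of the 4 genes where 0.514% of all genes passed. On soft hydrogels 0 of 4 passed, where 0.107% of all genes did, with 2 of 4 at an unadjusted p under 0.05, and Fabp3 had 0.19 (edgeR adjusted p = 0.179). For Bhmt the value of LIF under PD03 was 0.27 ± 0.08 on soft (edgeR adjusted p = 0.225) and 0.27 ± 0.09 on stiff hydrogels (edgeR adjusted p = 0.257), although no library with LIF overlapped one without it. DESeq2 called the value on soft hydrogels (0.28, adjusted p = 0.0223).

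Time and plastic were compared in serum + LIF. Fabp3 fell between 24 h and 48 h, from 126 ± 3.62 to 85.4 ± 5.69 CPM (SD) on soft (log2 -0.56 ± 0.06, edgeR adjusted p = 2.09e-09) and from 116 ± 9.72 to 64.7 ± 3.15 CPM on stiff hydrogels (-0.84 ± 0.06, edgeR adjusted p = 1.16e-14). Fabp5 rose on soft hydrogels by 0.51 ± 0.16 (edgeR adjusted p = 0.0133) from libraries at 6.27, 7.0 and 4.57 CPM, and Bhmt on stiff hydrogels by 1.32 ± 0.40 (edgeR adjusted p = 0.00973) from libraries at 0.395, 0.0980 and 0.779 CPM. The call for Fabp5 was lost without soft 24 h library 3 (0.34, edgeR adjusted p = 0.165) or soft 48 h library 1 (0.41, edgeR adjusted p = 0.093), and that for Bhmt without stiff 24 h library 2 (0.87, edgeR adjusted p = 0.0991), while without stiff 24 h library 3 its value was 2.14. Thus 2 of the 4 genes passed on each substrate, where 24.4% of all genes did on soft and 25.6% on stiff hydrogels. On soft hydrogels the times came from different pools, which are linked only through the groups split between pools. With pool as a term, Fabp3 passed under 34 of 45 assignments on soft and all 45 on stiff hydrogels, and Fabp5 and Bhmt under none.

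On plastic, Fabp3 lay at 68.6, 77.8 and 68.6 CPM. It was higher on soft hydrogels than on plastic by 0.25 ± 0.07 (log2, SE, edgeR adjusted p = 0.00572), 1 of the 4 genes where 11.8% of all genes passed, but under none of the 45 assignments with pool as a term, and not without soft library 2 (0.20, edgeR adjusted p = 0.0759). Between stiff hydrogels and plastic 0 of 4 passed by edgeR or DESeq2, where 5.54% of all genes did, and 1 had an unadjusted p under 0.05. Fabp3 had -0.15 there (edgeR adjusted p = 0.228). Bhmt lay at 0.668, 0.847 and 1.10 CPM on plastic and Bhmt2 at 0.111, 0.424 and 0.0690 CPM, within the range of the hydrogel libraries without PD03. Fabp5 lay at 6.18, 9.20 and 9.11 CPM.

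Genes with the most similar profile were found from the centred log2 CPM means of the 11 groups among 10087 genes, by the root-mean-square (RMS) difference. For Bhmt2 these were Dmgdh (RMS 0.28), Trim43a (0.30) and Ddr2 (0.33). For Bhmt, Crxos (0.86), Ddr2 (1.07) and Trim43a (1.07) were closest, at a wider distance than for the other members. For Fabp3 they were Boc (0.16), Sh3tc1 (0.18) and Rab11fip5 (0.20), and for Fabp5 Nhsl1, Lemd3 and Cdc42ep5 (0.11 to 0.12). By Pearson's r in place of the RMS difference, which disregards the size of the change, other genes came first for each member: Zxdc for Fabp3, Txndc5 for Fabp5, Ubxn2a for Bhmt and Mfsd1 for Bhmt2. The groups share their PD03 contrast, pools and depth, so these likenesses are a description only.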

How the data were processed

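Per the labels and the study's methods, the authors aligned reads to GRCm38/mm10 with STAR 2.5.2a and counted them per gene with HTSeq, and they deposited raw counts. Strand and multi-mapping settings are not given in the sources used here. Each column named a group but no replicate, so library numbers are only names, and pools from the labels could be assigned to columns in 45 ways. The counts were fitted here in R 4.3.3 with edgeR 4.0.16 (filterByExpr, TMM, quasi-likelihood test, 1 coefficient per group, 36 libraries), with Benjamini-Hochberg adjustment over 17702 genes holding 99.92% of the counts. CPM values use TMM-scaled library sizes. Levels rest on 10405696 to 26635239 counts per library, and replicate pairs differed by more than sampling noise in all 45 pairs (chi-square per gene 2.22 to 13.4). The fit was tested on simulated data. Alternatives were DESeq2 1.42.0 and its size factors, no filter, a pool term, leaving out each library, another likeness measure and, chosen after seeing the data, summing near-identical copies. Members and lists were chosen with earlier results of these data known. List genes were named if past the threshold in at least 3 of 4 PD03 comparisons with 1 sign and a mean of at least 5 CPM (the 5 largest mean changes per list), as were the FABP relatives, fixed betaine genes, 3 neighbours on each side and the 3 closest profiles.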

Additional observations from a re-analysis of the deposited data

Results flagged for a closer look

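The effect of PD03 on Fabp3 differed between the substrates. With LIF it was smaller on soft than on stiff hydrogels by 0.97 on the log2 scale (interaction -0.97), and without LIF by 0.69 (interaction -0.69). In both media all soft libraries lay above all stiff libraries without PD03 and below them with it. The difference was not tested, because Fabp3 was chosen for its response to PD03. At 48 h, substrate and pool nearly coincided. With pool as a term the values ran from -1.0 to -0.93 with LIF and from -0.73 to -0.65 without LIF over 45 assignments.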

How the results depend on the processing

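No paired analysis was possible because the columns carry no replicate numbers. Of 84 comparisons of the 4 genes, 68 were tested and 18 passed the threshold, of which 12 kept direction and call under every alternative run. The kept calls include the PD03 rises of Bhmt2, which had enough counts to be tested only through its libraries with PD03. DESeq2's size factors in place of TMM changed no direction and no call. The cause of the changes below was not tested.

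With pool as a term, the lowest or highest value over the 45 assignments had the other sign between soft and stiff hydrogels in serum + LIF for Fabp5 (-0.26), Bhmt (-0.26) and Bhmt2 (0.10), in serum + PD03 for Fabp5 (-0.070) and Bhmt (-0.046) and in serum + LIF + PD03 for Fabp5 (-0.26), Bhmt (-0.10) and Bhmt2 (-0.10). It also had the other sign between soft hydrogels and plastic for Fabp3 (-0.0070), Fabp5 (-0.28), Bhmt (-0.084) and Bhmt2 (-0.47), between stiff hydrogels and plastic for Fabp5 (-0.015), over time on stiff hydrogels for Bhmt2 (-0.26), and for the interactions of Bhmt (-0.0037 for substrate with LIF, 0.0072 for LIF on soft) and Fabp3 (0.0014 for LIF on soft). Calls were lost for Fabp3 between substrates in serum + LIF (0.22) and serum (0.17), over time on soft hydrogels (-0.38) and against plastic (0.43 at the highest), for Fabp5 over time on soft (0.19 and 0.76) and for Bhmt over time on stiff hydrogels (1.14 and 1.45).

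Without the filter, calls were gained for LIF under PD03 on soft hydrogels by Fabp3 (0.19) and Bhmt (0.28) and for time on soft hydrogels by Bhmt (0.93), and Bhmt2 turned to 0.0035 for LIF under PD03 on stiff hydrogels. DESeq2 gained calls for Bhmt for LIF without PD03 on stiff (1.14), LIF under PD03 on soft (0.28) and time on soft hydrogels (0.92). With copies summed, Fabp5 gained a call between substrates in serum (-0.46), lost that for time on soft hydrogels (0.31) and changed sign in serum + LIF + PD03 between substrates (-0.041) and against plastic (-0.072 for soft, -0.12 for stiff).

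Leaving out each library in turn, signs or calls changed in these ranges. Between substrates they were -0.20 to 1.26 for Bhmt at 24 h, -0.069 to 0.20 (Fabp5), -0.25 to 0.25 (Bhmt) and -0.93 to 0.32 (Bhmt2) in serum + LIF, 0.24 to 0.35 (Fabp3) in serum, -0.22 to 0.15 (Bhmt2) in serum + PD03, and -0.039 to 0.049 (Fabp5) and -0.036 to 0.13 (Bhmt2) in serum + LIF + PD03. For LIF they were -0.026 to 0.24 (Fabp5) and -0.41 to 0.83 (Bhmt2) on soft hydrogels without PD03 and -0.13 to 0.24 (Bhmt2) on stiff hydrogels with it. Over time they were 0.34 to 0.67 (Fabp5) and 0.59 to 1.56 (Bhmt) on soft and 0.87 to 2.14 (Bhmt) on stiff hydrogels. Against plastic they were 0.20 to 0.33 (Fabp3), -0.11 to 0.21 (Fabp5) and -0.33 to 1.53 (Bhmt2) for soft and -0.16 to 0.11 (Fabp5) for stiff hydrogels. Substrate interactions with LIF ran from -0.18 to 0.082 (Fabp5), -0.17 to 0.33 (Bhmt) and -0.28 to 0.97 (Bhmt2). LIF interactions ran from -0.062 to 0.038 (Fabp3), -0.24 to 0.25 (Bhmt) and -0.70 to 0.55 (Bhmt2) on soft and from -0.0040 to 0.51 (Bhmt2) on stiff hydrogels.

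Counts over all genes moved too. The counts for the 4 PD03 comparisons stayed within 1.5 times of the reported ones. The other counts ran over all alternatives from 416 to 671 (reported 628) at 24 h between substrates, and at 48 h from 0 to 266 (138) in serum + LIF, 173 to 955 (858) in serum, 276 to 1078 (982) in serum + PD03 and 246 to 1415 (1348) in serum + LIF + PD03. For LIF they ran from 0 to 46 (3) on soft and 109 to 381 (249) on stiff hydrogels without PD03, and from 3 to 73 (19) and 24 to 141 (91) with it. For time they ran from 345 to 4290 (4315) on soft and 2219 to 4502 (4535) on stiff hydrogels, and against plastic from 126 to 2108 (2083) and 225 to 1015 (981). For the interactions they ran from 114 to 259 (189) and 49 to 307 (141) for substrate and from 1 to 41 (4) and 87 to 251 (193) for LIF. Depth limits Bhmt and Bhmt2 without PD03, where 21 libraries held 285 and 107 counts.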

Other observations

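Genes of folate one-carbon metabolism, which supply the methyl groups that MTR uses, moved in both directions with PD03. Of 21 genes, 20 were tested, and 10 were lower and 3 higher with PD03 in all 4 comparisons, beside 19.9% and 21.5% of all genes, with a median of the mean log2 changes of -0.17 against -0.0040 over all genes. Mthfd2, a mitochondrial folate enzyme, fell by 0.75 to 1.05, from between 52.1 and 77.9 to between 32.8 and 39.9 CPM. Mthfd1l, which releases formate from mitochondria, fell by 0.53 to 0.79. The reduced folate carrier Slc19a1 fell by 0.83 to 1.25, and the mitochondrial folate carrier Slc25a32 by 0.88 to 1.26. Amt, a subunit of the glycine cleavage system, rose by 0.66 to 0.90.

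Fabp3 ordered the groups with PD03 by substrate first, while Bhmt ordered them by LIF first. Soft and stiff libraries with PD03 did not overlap for Fabp3 and overlapped for Bhmt. The effect of LIF on Bhmt under PD03 did not pass on soft or stiff hydrogels (edgeR adjusted p = 0.225 and 0.257), and substrate nearly coincided with pool. This contrast between the genes was not tested.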
